A study of Mus musculus with 12 samples.

Results

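The 6 genes described here encode the neurofilament subunits *Nefl*, *Nefm* and *Nefh*, the neuronal filament protein alpha-internexin (*Ina*), and nestin (*Nes*) and vimentin (*Vim*), the filament proteins of precursor and mesenchymal cells. They are 6 of the 46983 genes in the deposited table, taken by their symbols. *Nefl* and *Nefm* were chosen by their FPKM on 0d, being among the genes lowest in PPARγ/+ relative to WT cells in an earlier analysis of the same libraries, so the comparison of the cell types on 0d is given below as a description with no test, and the other 4 are their relatives in the same gene family. The cells were C2C12, an established mouse myoblast line whose cells fuse into myotubes when differentiated. The WT cells are the group labelled wild type, which the sample titles and the study's results name after the PiggyBac vector PB-IP. Whether they carried that vector empty is not stated in the sources used here. The PPARγ/+ cells carried PB-IP with the coding sequence of PPARγ, the nuclear receptor that drives fat cell formation. Positive clones were obtained with puromycin, and how many clones a line held is not given in the sources used here. The design text calls the PPARγ cells inducible and the control cells uninduced, whereas the labels give WT and PPARγ/+ as genotypes only. RNA of both cell types was sequenced on 0d, before the cells were differentiated, and on 5d of differentiation, with 3 biological replicates in each of the 4 groups WT_0d, WT_5d, PPARγ/+_0d and PPARγ/+_5d, 12 libraries in all.

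Intermediate filaments are rope-like polymers of rod-shaped proteins that give a cell its resistance to stretch. In neurons the light (*Nefl*), medium (*Nefm*) and heavy (*Nefh*) neurofilament subunits and alpha-internexin assemble together and set the diameter of the axon. Myoblasts are known for vimentin and nestin, and desmin (*Des*) becomes the main filament protein of muscle as the myotubes form, with nestin staying in young fibres.

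*Pparg* itself was higher in every PPARγ/+ library than in every WT library, at 28.0 to 46.4 against 5.10 to 7.56 FPKM on 0d and at 40.1 to 92.7 against 3.12 to 4.59 FPKM on 5d (log2 fold change on 5d 3.85, SE 0.34, limma adjusted p = 0.0379). FPKM are fragments scaled to the exon length of the gene and to the mapped fragments of the library, so they can be set side by side between genes. The fragments recovered from the FPKM on genes with whole-number values came to 10836628 to 15133171 per library. Among the myotube markers *Myog*, *Ckm*, *Myh3*, *Acta1*, *Tnnt3* and *Ttn*, the summed level on 5d was 3655 and 2737 FPKM in replicates 1 and 2 of WT_5d but 807 FPKM in replicate 3, close to the 818 to 961 FPKM of PPARγ/+_5d. WT_5d replicate 3 thus stood apart from its group, and the results on the 6 genes that rest on it are given with and without it, as are the calls of listed genes named below where they change without it.

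The promoters of 3 of the 6 genes were found in the RefSeq promoter table of build GRCm38.p6, namely *Vim*, *Nes* and *Ina*. The 250 bases before the start of *Vim* and of *Nes* are shown because these 2 genes were expressed strongly enough to be tested in every comparison and their log2 fold changes had opposite signs in each comparison of 2 groups. Capitals mark the motifs found, TATAAA in *Vim* and GGGCGG, read on the other strand as CCGCCC, in *Nes*. The *Vim* sequence is chr2:13574061-13574310 and the *Nes* sequence chr3:87970843-87971092, both on the plus strand. The starts used are those of RefSeq and lie downstream of the gene starts given below. The *Vim* stretch thus lies within the annotated extent of *Vim*, and the end of the *Nes* stretch within that of *Nes*.
Vim: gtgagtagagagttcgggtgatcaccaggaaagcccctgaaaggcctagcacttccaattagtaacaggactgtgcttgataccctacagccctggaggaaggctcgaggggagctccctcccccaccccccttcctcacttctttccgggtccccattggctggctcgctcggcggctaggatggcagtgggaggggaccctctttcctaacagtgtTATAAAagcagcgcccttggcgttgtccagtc
Nes: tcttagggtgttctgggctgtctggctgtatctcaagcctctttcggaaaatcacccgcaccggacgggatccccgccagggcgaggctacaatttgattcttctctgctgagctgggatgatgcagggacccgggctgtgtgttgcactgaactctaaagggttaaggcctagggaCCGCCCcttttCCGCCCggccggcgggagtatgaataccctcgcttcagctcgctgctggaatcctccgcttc
The *Vim* stretch held 1 TATAAA, which starts 32 bases before the transcription start, and the *Nes* stretch held 2 copies of GGGCGG, which start 73 and 62 bases before it. Both strands were also searched for AGGTCA, the half-site of nuclear receptors, for 2 such half-sites with 1 base between them (DR1, the element bound by PPARγ with RXR), and for the E-box CANNTG bound by MyoD. None of these letters occurred in either stretch. Over the 32851 promoters of the table, each from 250 bases before to 50 bases after a start, 16.3% held the half-site, 0.0396% DR1, 72.3% an E-box, 13.6% TATAAA and 35.7% GGGCGG.

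On 0d the neurofilament subunits *Nefl* and *Nefm* were well above the counting floor in WT cells and close to the limit of detection in PPARγ/+ cells. *Nefl* was at 8.27, 8.74 and 5.47 FPKM in the 3 WT_0d libraries (7.49 ± 1.77, SD, n = 3), which rests on 542, 745 and 428 fragments. In the 3 PPARγ/+_0d libraries it was at 0.0606, 0.0794 and 0.149 FPKM (0.0964 ± 0.0466, SD, n = 3), from 5, 7 and 11 fragments. The WT_0d mean was 77.7 times that of PPARγ/+_0d, and the libraries of the groups were far from overlapping. In RNA of whole cultures, fewer cells with a transcript and less of it per cell cannot be told apart.

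*Nefm* followed *Nefl*. It was at 6.30, 6.69 and 4.94 FPKM in WT_0d (5.98 ± 0.921, SD, n = 3) and at 0.184, 0.0796 and 0.317 FPKM in PPARγ/+_0d (0.194 ± 0.119, SD, n = 3), with 661 to 976 fragments in the first group and 12 to 40 in the second. Its mean in WT_0d was 30.9 times that in PPARγ/+_0d. Among the 11395 genes with a mean of at least 1 FPKM in WT_0d, *Nefl* had the lowest log2 fold change of PPARγ/+ relative to WT cells on 0d (-5.27 on the log2(FPKM + 0.1) scale) and *Nefm* was at rank 3 (-4.44). Between them stood *Pdlim3*, a Z-disc protein of muscle, at -4.48, and next after *Nefm* came the stathmin *Stmn4* (-3.88), the acetylcholine receptor subunit *Chrnd* (-3.69) and the ligand *Wnt7b* (-3.62). These values chose the genes and are no evidence about them. Of all 18023 genes tested, 287 (1.59%) passed the thresholds of limma in this comparison, 65 higher and 222 lower.

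**Figure D1:**
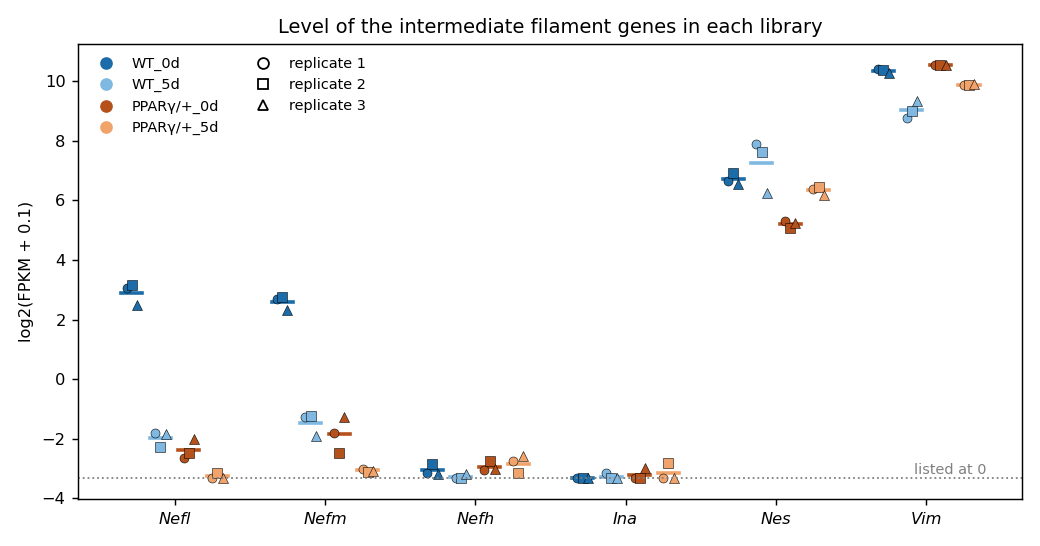
Level of each of the 6 genes on the log2(FPKM + 0.1) scale (vertical axis) in the 12 libraries, coloured by group and with a symbol for each replicate number, with a line at each group's mean of the logged values. *Nefl* and *Nefm* stand above 2 in WT_0d alone, *Nefh* and *Ina* lie near the dotted line of genes listed at 0 throughout, and *Nes* and *Vim* are high in all libraries.

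The level of both subunits was also low in differentiated WT cells. In WT_5d *Nefl* was at 0.186, 0.107 and 0.182 FPKM (0.158 ± 0.0442, SD, n = 3; 16, 7 and 14 fragments) and *Nefm* at 0.319, 0.323 and 0.167 FPKM (0.270 ± 0.0888, SD, n = 3; 47, 36 and 22 fragments). In WT cells the 0d mean was 47.3 times the 5d mean for *Nefl* and 22.2 times for *Nefm*, given as a description since the WT_0d libraries entered the choice of the genes. No library of WT_5d overlapped with those of WT_0d, and WT_5d replicate 3, low in myotube markers, had as little of both transcripts as replicates 1 and 2. Ordered by mean, both genes ran from WT_0d through WT_5d and PPARγ/+_0d to PPARγ/+_5d. The middle 2 groups are neighbours that overlap in their libraries for both genes, and the others do not overlap with their neighbours.

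The 6 libraries of 5d did not enter the rule that chose the genes, though earlier results of these data were known. They come from the same WT and PPARγ/+ cells as the 0d libraries, and they held a further difference at very low level. *Nefl* in PPARγ/+_5d was listed at 0, 0.0138 and 0 FPKM, a single fragment in 3 libraries, against 37 fragments in WT_5d. Scaled to the depth of the libraries, *Nefl* fragments were 33.3 times as frequent in WT_5d, with a 95% exact interval of 5.62 to 1351 that covers counting error only. *Nefm* was at 0.0250, 0.0161 and 0.0186 FPKM in PPARγ/+_5d (0.0199 ± 0.00460, SD, n = 3), from 3, 2 and 2 fragments, against 105 fragments in WT_5d, a ratio of 13.5 (95% exact interval 6.33 to 34.4). For both genes every WT_5d library lay above every PPARγ/+_5d library. In this and every other comparison here, the share of all genes whose libraries do not overlap was not counted, so separation is a description only.

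The replicate test did not call them. In limma over the 3 WT_5d and 3 PPARγ/+_5d libraries a gene was called at an adjusted p of at most 0.05 and a change of at least 2-fold, which 28 of the 18023 genes met (0.155%), 17 higher and 11 lower in PPARγ/+ cells. *Nefl* had a log2 fold change of -1.29 (SE 0.21, limma adjusted p = 0.107) and *Nefm* of -1.59 (SE 0.25, limma adjusted p = 0.0976). At so few fragments the pseudocount of 0.1 FPKM shrinks a fold change, and the fitted value depends on it. None of the 4 members tested was called. Of all genes 2281 had an unadjusted p of at most 0.05 in limma, *Nefl*, *Nefm* and *Vim* among them. Without WT_5d replicate 3 both were called lower in PPARγ/+ cells (log2 fold change -1.22, limma adjusted p = 0.0382 for *Nefl* and -1.81, limma adjusted p = 0.0101 for *Nefm*), where 723 genes were called in all (4.01%). The fit of *Nefl* itself was no stronger there, with a limma unadjusted p of 0.00313 against 0.000982 with all 6 libraries. Its adjusted p fell because the adjustment depends on the p-values of all genes. Leaving out any other 5d library called neither gene. *Nefl* passed the filter on low values through its 3 WT_0d libraries with 3 further libraries above 0.1 FPKM in WT_5d and 1 in PPARγ/+_0d.

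**Figure D2:**
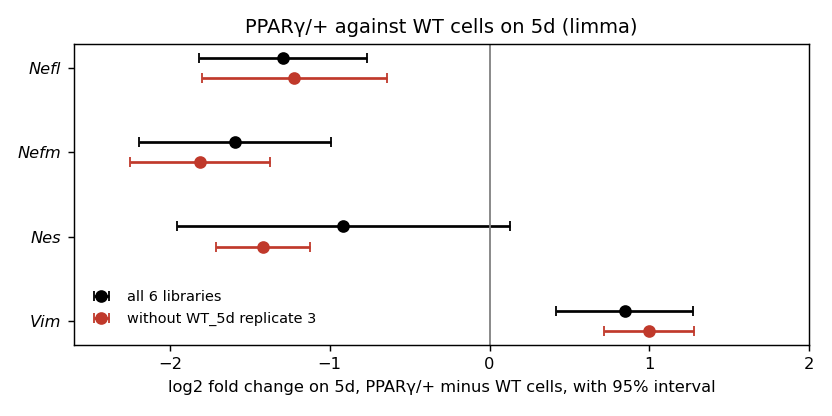
Log2 fold change of PPARγ/+ relative to WT cells on 5d (horizontal axis, points) with its 95% interval from limma (bars) for the 4 genes tested, with all 6 libraries in black and without WT_5d replicate 3 in red. *Nefl* and *Nefm* lie left of 0 and *Vim* right of it in both fits, while the interval of *Nes* spans 0 with all libraries, from -1.96 to 0.13, and lies below it without the library that stands apart.

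From 0d to 5d within PPARγ/+ cells *Nefl* went from 23 fragments over 3 libraries to 1 and *Nefm* from 78 to 7, so that the 0d mean was 21.0 and 9.72 times the 5d mean. On the log2(FPKM + 0.1) scale these are changes of -0.89 and -1.21, against -4.86 and -4.06 in WT cells. At such levels the pseudocount sets their size, which in PPARγ/+ cells ran from -0.13 with a pseudocount of 1 to -3.155 with voom on the recovered fragments for *Nefl* and from -0.22 to -2.80 for *Nefm*. The interaction coefficients, by which the change over time in PPARγ/+ cells exceeds the one in WT cells, were 3.98 and 2.85, and 2.33 and 1.70 with voom. They contain the 0d comparison that chose both genes and are given without a test.

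The heavy subunit *Nefh* and alpha-internexin were hardly detected. *Nefh* had 1, 4 and 1 fragments in WT_0d, 0, 0 and 1 in WT_5d, 2, 5 and 2 in PPARγ/+_0d and 4, 1 and 5 in PPARγ/+_5d, so that no library exceeded 0.0674 FPKM. On 5d its fragments lay at 10 in PPARγ/+ cells and 1 in WT cells, the opposite order to *Nefl* and *Nefm*, and the WT_5d fragments were 0.0900 times as frequent (95% exact interval 0.00207 to 0.633, counting error only). On 0d they lay at 9 and 6, and the libraries overlapped. *Ina* had 0 fragments in all 3 WT_0d libraries, 1 in WT_5d, 2 in PPARγ/+_0d and 3 in PPARγ/+_5d, and its groups overlapped throughout. Neither gene passed the filter of 0.1 FPKM in 3 libraries, which leaves 4 of the 6 genes in the tests. In WT_0d *Nefl* and *Nefm* were thus present without detectable *Ina* at this depth, where a count of 0 allows up to 3 fragments.

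*Nefl* and *Nefm* are neighbours in the genome, on chromosome 14 of GRCm38 at 68083863 to 68089095 (plus strand) and 68082590 to 68124846 (minus strand). The long annotated extent of *Nefm* comes from a second transcript, an exon of which covers part of *Nefl*, so that 1108 of the 3380 exonic bases of *Nefl* and of the 5782 of *Nefm* are the same bases read on opposite strands. Strand in counting is not given in the sources used here, and without it reads in the shared bases cannot be assigned to either gene. The level of *Nefm* per length relative to *Nefl* was 0.763, 0.766 and 0.903 in the WT_0d libraries, where the depth allows a ratio. This ratio uses the full exonic lengths, shared bases included, so it depends on how reads in those bases were counted. The other members lie on different chromosomes, *Nefh* on 11 (4938754 to 4948064, minus strand), *Ina* on 19 (47014698 to 47025327, plus strand), *Nes* on 3 (87971078 to 87980451, plus strand) and *Vim* on 2 (13573927 to 13582826, plus strand). *Ina* shares 456 exonic bases with *Nt5c2* on the opposite strand.

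Within 500000 bases of *Nefl* or *Nefm*, 12 genes of the table were found and 5 besides the pair were tested. The cell cycle gene *Cdca2*, the potassium channel domain gene *Kctd9*, the hormone gene *Gnrh1*, the exchange factor *Dock5* and the transcript *AC093020.1* had log2 fold changes of -0.12, 0.26, 0.35, -0.72 and 0.19 in PPARγ/+ relative to WT cells on 0d, and of -0.01, -0.18, -0.01, -0.16 and 0.12 on 5d. None of the 5 was called on 5d, where 0.155% of all genes were called, so a set this small would seldom hold a call. From 0d to 5d *Cdca2* changed by -3.22 in WT and -3.12 in PPARγ/+ cells, and *AC093020.1* by -2.64 and -2.71. The changes of *Kctd9*, *Gnrh1* and *Dock5* between the days lay between -0.85 and -0.23. *Dock5*, the nearest of them, was at 7.27, 7.49 and 9.85 FPKM in WT_0d and at 4.51 to 5.45 FPKM in PPARγ/+_0d, so its libraries did not overlap on 0d either, at a much smaller difference than that of *Nefl*. No tested gene lay beyond *Nefm* on the other side.

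**Figure D3:**
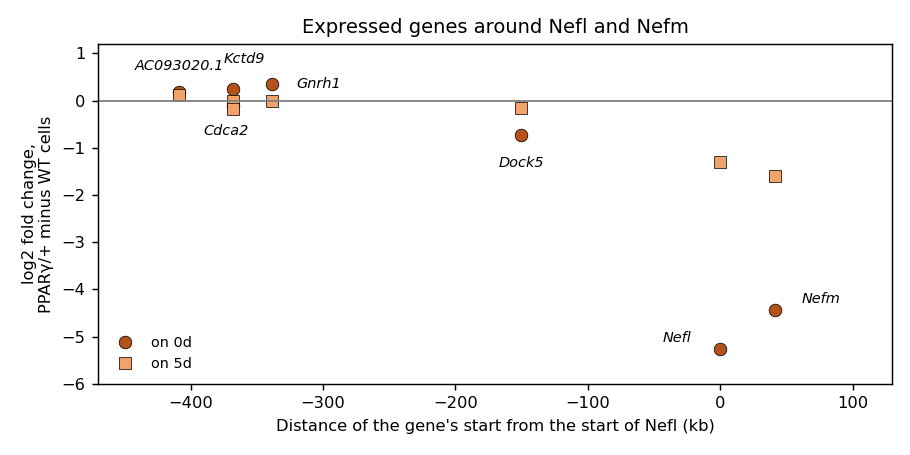
Log2 fold change of PPARγ/+ relative to WT cells (vertical axis) of the 7 tested genes around *Nefl* against the distance of each gene's start from the start of *Nefl* in kilobases (horizontal axis), on 0d (circles) and 5d (squares). *Nefl* and *Nefm* lie far below 0 on 0d, and the other 5 genes lie between -0.72 and 0.35 on both days.

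The transcripts most like the pair over the 12 libraries had their highest level in WT_0d, which follows from choosing them by likeness to the pair. By Pearson's r on log2(FPKM + 0.1) among 12399 genes, the 5 nearest to *Nefl* were *Nefm* (0.99), the neurotrophin receptor *Ngfr* (0.98), *Siglecg* (0.98), the septin *Sept9* (0.98) and the vitamin C transporter *Slc23a2* (0.97), and those nearest to *Nefm* were *Nefl*, *Siglecg* (0.98), *Slc23a2* (0.97), *Sept9* (0.97) and *Wdr36* (0.97). The points share their groups, so these values describe the group pattern. *Ngfr* was at 0.913, 1.09 and 1.04 FPKM in WT_0d, at 0 to 0.0127 FPKM in WT_5d and listed at 0 in all 6 PPARγ/+ libraries. *Sept9* by contrast was at 47.8 to 51.0 FPKM in WT_0d and at 30.4 to 34.9 FPKM in the other 9 libraries, the same order at a much smaller difference.

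*Nes* was far above the neurofilaments in every library and had its own pattern. It was at 99.2, 121 and 93.5 FPKM in WT_0d (105 ± 14.6, SD, n = 3) and at 39.5, 33.7 and 37.8 FPKM in PPARγ/+_0d (37.0 ± 2.999, SD, n = 3), with no overlap. The WT_0d mean was 2.83 times that of PPARγ/+_0d, and the log2 fold change of -1.49 was rank 133 among the 11395 genes ranked, again as a description. In PPARγ/+_5d it was at 82.4, 87.1 and 73.0 FPKM (80.8 ± 7.20, SD, n = 3), and within PPARγ/+ cells nestin rose from 0d to 5d by 1.12 on the log2 scale (SE 0.09, 95% interval 0.91 to 1.34, limma adjusted p = 1.44e-04). Within a cell type a gene was called at an unadjusted p of at most 0.05 and a change of at least 2-fold, which 2735 of the 18023 genes met in PPARγ/+ cells (15.2%), and *Nes* was the only one called of the 2 members that could be tested there.

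In WT cells the same comparison turned on WT_5d replicate 3. *Nes* was at 234 and 198 FPKM in replicates 1 and 2 of WT_5d and at 75.6 FPKM in replicate 3, below all 3 WT_0d libraries. The log2 change of 0.55 (SE 0.42, 95% interval -0.46 to 1.55, limma adjusted p = 0.350) was not called, among 2970 genes that were (16.5%). Without that library it was 1.05 (SE 0.14, limma adjusted p = 0.00515) and was called, among 3057 genes (17.0%). Between the cell types on 5d *Nes* overlapped, since WT_5d replicate 3 lay within the PPARγ/+_5d libraries, and its log2 fold change was -0.91 (SE 0.42, limma adjusted p = 0.431). Without that library it was -1.42 (SE 0.11, 95% interval -1.71 to -1.13, limma adjusted p = 0.00736) and was called lower in PPARγ/+ cells. The change from 0d to 5d did not differ detectably between the cell types, with an interaction of 0.58 (95% interval -0.43 to 1.58, limma adjusted p = 0.680), and of 0.07 (95% interval -0.30 to 0.45) without WT_5d replicate 3. Over all genes 137 were called in the interaction (0.760%) and 527 without that library (2.92%).

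*Vim* was among the most abundant transcripts and ran against *Nes*. In WT_0d it was at 1341, 1311 and 1244 FPKM (1299 ± 49.7, SD, n = 3) and in WT_5d at 432, 515 and 644 FPKM (530 ± 107, SD, n = 3), so that its rank within the library moved from 12 to 16 on 0d to 43 to 59 on 5d. It fell by 1.31 on the log2 scale in WT cells (SE 0.18, 95% interval -1.75 to -0.88, limma adjusted p = 0.00256), or by 1.46 without WT_5d replicate 3, and *Vim* was the only member called of the 2 that could be tested there. In PPARγ/+ cells it was at 1494, 1484 and 1494 FPKM on 0d (1491 ± 5.94, SD, n = 3) and at 934, 932 and 956 FPKM on 5d (941 ± 13.1, SD, n = 3), without overlap. That log2 difference of -0.66 (SE 0.09, 95% interval -0.88 to -0.45, limma adjusted p = 0.00111) was short of 2-fold and was not called.

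On 5d every PPARγ/+ library thus held more *Vim* than every WT library. The log2 fold change was 0.85 (SE 0.17, 95% interval 0.42 to 1.28, limma adjusted p = 0.154), and 0.9965 (95% interval 0.71 to 1.28, limma adjusted p = 0.0141) without WT_5d replicate 3, a fold of 1.995 that fell just short of 2. Neither was called. The log2 changes of *Vim* from 0d to 5d in the 2 cell types lay 0.65 apart (95% interval 0.23 to 1.07, limma adjusted p = 0.183), which did not pass the test with all libraries and passed it without WT_5d replicate 3 (0.80, limma adjusted p = 0.0157). On 0d the means differed by 0.20 on the log2 scale, higher in PPARγ/+ cells, as a description.

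The ratio of the 2 abundant filament transcripts moved with both day and cell type. *Vim* per *Nes*, both per length, was 10.8 to 13.5 in WT_0d, 37.8 to 44.0 in PPARγ/+_0d and 10.7 to 13.1 in PPARγ/+_5d. In WT_5d it was 1.84 and 2.60 in replicates 1 and 2 and 8.51 in replicate 3, so the PPARγ/+ cells on 5d overlapped with WT cells on 0d in this ratio. Over the 12 libraries *Nes* and *Vim* had a Pearson's r of -0.77 on the log2 scale, and *Nefl* had one of 0.26 with *Nes* and 0.31 with *Vim*, as descriptions of 4 groups of libraries. The summed myotube markers moved with *Nes* in WT_5d, at 3655, 2737 and 807 FPKM beside 234, 198 and 75.6 FPKM of *Nes*. In PPARγ/+_5d they did not, at 818, 941 and 961 FPKM beside 82.4, 87.1 and 73.0 FPKM, and their part in the result was not tested.

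**Figure D4:**
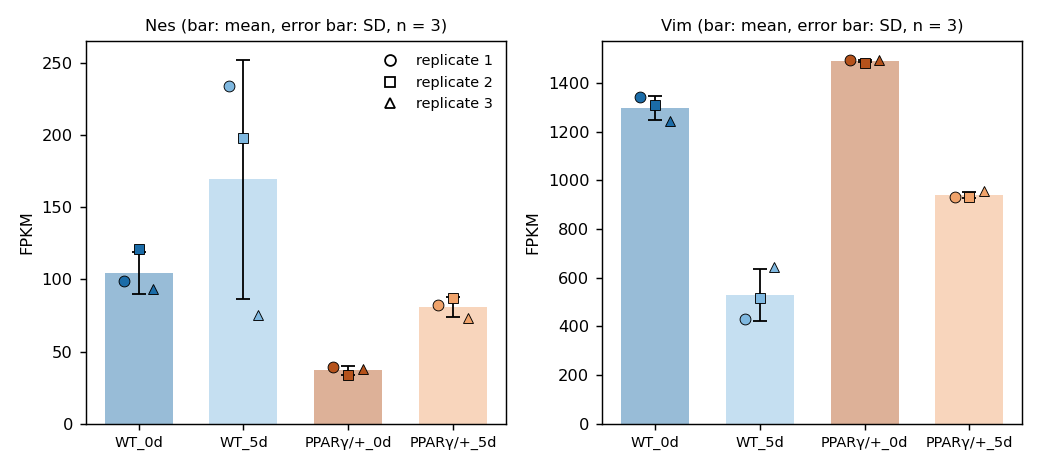
FPKM (vertical axis, from 0) of *Nes* (left) and *Vim* (right) in the 4 groups, with bars at the mean, error bars of 1 SD over 3 libraries and a symbol for each library. *Nes* is higher on 5d than on 0d in PPARγ/+ cells while *Vim* is lower on 5d in both cell types, and WT_5d replicate 3 is the lowest *Nes* and the highest *Vim* library of its group.

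The other intermediate filament genes gave a mixed picture. Of 57 such genes in the table, the keratins with desmin, peripherin and their kin, 13 passed the filter. On 5d none of the 13 was called between the cell types, where 0.155% of all genes were (median log2 fold change -0.0027, against 0.02 over all genes). Without WT_5d replicate 3, where 4.01% of all genes were called, the keratins *Krt31* and *Krt19* and desmin were called lower in PPARγ/+ cells. None of the 13 was called in the interaction with all libraries, where 0.760% of all genes were called. Without WT_5d replicate 3, where 2.92% of all genes were called in it, *Krt31* was called (-2.43, limma adjusted p = 0.00822). Within PPARγ/+ cells 4 rose from 0d to 5d and 5 fell (median -0.02, against -0.10 over all genes), and within WT cells 2 rose and 6 fell (median -0.90, against -0.08), or 4 and 5 without WT_5d replicate 3. Over all genes 15.2% were called in PPARγ/+ cells and 16.5% in WT cells, or 17.0% without that library. *Des* was at 45.5, 49.2 and 62.9 FPKM in PPARγ/+_0d and at 199, 224 and 239 FPKM in PPARγ/+_5d, a rise of 2.08 on the log2 scale (SE 0.13, limma adjusted p = 6.58e-05). In WT cells it was at 108 to 180 FPKM on 0d and at 558, 478 and 135 FPKM on 5d (1.25, SE 0.55, limma adjusted p = 0.122), which was not called. Its lowest WT_5d library was the same as that of *Nes*, and without it desmin was called higher on 5d in WT cells too (1.90, SE 0.23, limma adjusted p = 0.00366). *Sync*, the syncoilin that binds desmin, rose in PPARγ/+ cells by 1.10 (limma adjusted p = 8.63e-04) to 11.1 to 11.6 FPKM, and was called in WT cells without that library only (1.25, limma adjusted p = 0.00457). The basal keratin *Krt14* fell in both cell types, by 1.44 in WT cells (limma adjusted p = 7.75e-04) and by 1.56 in PPARγ/+ cells (limma adjusted p = 0.00145), and *Krt19* fell by 2.81 (limma adjusted p = 0.0241) and 2.33 (limma adjusted p = 1.80e-04). *Krt80* rose by 1.23 (limma adjusted p = 5.22e-04) in PPARγ/+ cells. *Krt13* was at 5.29 to 11.8 FPKM in WT_0d and fell by 3.35 in WT cells (limma adjusted p = 6.55e-04) and by 1.75 in PPARγ/+ cells (limma adjusted p = 0.00152). Listed genes named here whose highest group mean was below 10 FPKM and that were not called on 5d, such as *Krt13*, *Krt31*, peripherin (*Prph*) and *Rest*, were chosen after their values were seen.

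*Prph*, the filament protein of peripheral neurons and a partner of neurofilaments, fell over time as well, and its libraries overlapped between the cell types on both days. It was at 1.24, 0.765 and 0.926 FPKM in WT_0d and at 1.63, 1.40 and 0.933 FPKM in PPARγ/+_0d, which overlap. On 5d it was at 0.0211 to 0.165 FPKM in WT cells and 0.125 to 0.207 FPKM in PPARγ/+ cells, and it fell by 2.56 (SE 0.35, limma adjusted p = 0.00248) in the former and by 2.44 (SE 0.25, limma adjusted p = 3.78e-04) in the latter.

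None of the genes listed to link, move or repress neurofilaments was called between the cell types on 5d, where 0.155% of all genes were called. At that share lists this short would seldom hold a call. Of the linkers and chaperones of intermediate filaments 7 of 8 in the table were tested, with a median log2 fold change of -0.16 on 5d. Plectin (*Plec*), the cross-linker of filaments, was at 43.7 to 64.6 FPKM in WT_5d and 50.8 to 56.4 FPKM in PPARγ/+_5d. The small heat shock protein *Hspb1* fell from 0d to 5d in WT cells by 1.22 (limma adjusted p = 0.0350). That call was lost without WT_5d replicate 3, where the change of -0.89 was short of 2-fold (limma unadjusted p = 0.0244, limma adjusted p = 0.0605). In PPARγ/+ cells its log2 difference of -0.35 was not called. The other linkers and chaperones above 10 FPKM, *Cryab*, *Dst* and *Macf1*, were not called in the 4 comparisons, save that *Macf1* was called higher on 5d in WT cells without WT_5d replicate 3, and the periplakin gene *Ppl* was called higher on 5d in both cell types. Of the 10 genes for transport, phosphorylation and turnover of neurofilaments, among them the motors *Kif5b* and *Dync1h1* and the kinases *Cdk5* and *Gsk3b*, all were tested and none was called in any comparison (median on 5d -0.05). The 6 genes of the neuronal repressor complex gave no call either (median on 5d 0.07). Over all genes 16.5% were called in WT cells, 15.2% in PPARγ/+ cells and 0.760% in the interaction. *Rest*, the repressor of neuronal genes in other tissues, had means of 6.73, 6.78, 6.94 and 6.75 FPKM in WT_0d, WT_5d, PPARγ/+_0d and PPARγ/+_5d, and its partners *Hdac1*, *Hdac2*, *Ehmt2*, *Sin3a* and *Rcor1* were between 7.27 and 45.9 FPKM in all libraries.

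Some markers of neurons were expressed in these myoblasts and others, among them defining ones, were absent. Of 15 such markers *Snap25*, *Elavl4* and *Dcx* were at 0 in all 12 libraries and 9 passed the filter. Their summed level was 57.5 to 88.0 FPKM in WT_0d, 11.9 to 24.8 in WT_5d, 32.9 to 40.8 in PPARγ/+_0d and 13.8 to 16.8 in PPARγ/+_5d. Like *Nefl* and *Nefm* it was highest in WT_0d, but PPARγ/+_0d came next, and the cell types overlapped on 5d. The part of these markers in the result was not tested. The sum was carried by *Tubb3*, *Stmn2* and *Gap43*, a tubulin, a stathmin and a growth cone protein. *Tubb3* was at 50.4, 52.8 and 33.3 FPKM in WT_0d and at 4.30 to 12.2 FPKM in the other 9 libraries, and *Gap43* at 6.23, 8.43 and 4.71 FPKM in WT_0d and at 0.346 to 1.80 FPKM in the others. Both had the order of *Nefl* in that WT_0d was the highest group without overlap. *Stmn2* did not have this order, at 9.29 to 16.8 FPKM in WT_0d and 16.2 to 22.2 FPKM in PPARγ/+_0d, and it fell from 0d to 5d by 1.77 in WT cells (limma adjusted p = 0.00171) and by 2.60 in PPARγ/+ cells (limma adjusted p = 2.41e-05).

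Within WT cells 5 of the 9 tested neuronal markers fell from 0d to 5d (*Tubb3*, *Stmn2*, *Gap43*, *Uchl1* and *Prph*) and *Mapt* rose, with a median of -1.77, and within PPARγ/+ cells *Stmn2*, *Uchl1* and *Prph* fell and *Map2* rose, with a median of -0.26. Over all genes 16.5% were called in WT cells and 15.2% in PPARγ/+ cells, in either direction. *Tubb3* fell by 2.49 in WT cells (SE 0.39, limma adjusted p = 0.00419), and its log2 difference of -0.47 in PPARγ/+ cells was not called. Its interaction of 2.02 (SE 0.45, limma adjusted p = 0.0798) did not pass the test with all libraries, and *Tubb3* was called in it without WT_5d replicate 3 (1.60, limma adjusted p = 0.0225). On 5d none of the 9 was called between the cell types, where 0.155% of all genes were called. Without WT_5d replicate 3, where 4.01% of all genes were called, *Mapt* and *Map2* were called lower in PPARγ/+ cells.

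**Figure D5:**
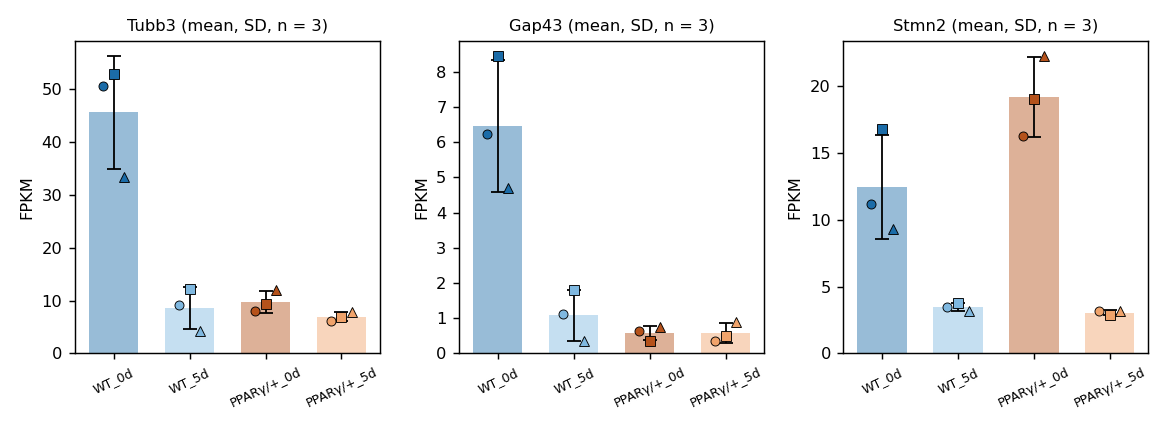
FPKM (vertical axes, from 0) of *Tubb3*, *Gap43* and *Stmn2* in the 4 groups, with bars at the mean, error bars of 1 SD over 3 libraries and a symbol for each library. *Tubb3* and *Gap43* are highest in all 3 WT_0d libraries, and *Stmn2* is high on 0d in both cell types.

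The neural progenitor markers stayed below 1 FPKM in every library, with *Sox1* and *Fabp7* at 0, and of the Schwann cell and glia markers *Sox10* was at 0 in every library and *Erbb3* alone exceeded 1 FPKM, with 3.77 to 13.4 FPKM in WT_5d. *Erbb3* was not called between the cell types on 5d with all libraries. Without WT_5d replicate 3 it was called lower in PPARγ/+ cells (-3.36, limma adjusted p = 0.00604). The myoblast factor *Myod1* was at 5.03 to 41.5 FPKM in the 12 libraries, and all 6 myotube markers rose from 0d to 5d in both cell types. Between the cell types on 5d none of the 6 was called, where 0.155% of all genes were called. Without WT_5d replicate 3, where 4.01% of all genes were called, all 6 were called lower in PPARγ/+ cells. The 5 myoblast markers summed to 62.4 to 130 FPKM in WT_0d and 30.1 to 44.5 FPKM in PPARγ/+_0d without overlap, so they moved with *Nefl*, *Nefm* and *Nes* on 0d, and their part in that difference was not tested. The 4 fibroblast markers summed to 181 to 254 FPKM in WT_0d and 168 to 230 FPKM in PPARγ/+_0d, which overlap, and to 658 to 1005 and 913 to 935 FPKM on 5d. The adipocyte markers *Adipoq* and *Fabp4* were called higher in PPARγ/+ cells on 5d, by 7.22 (limma adjusted p = 0.0378) and 5.65 (limma adjusted p = 0.0166) on the log2 scale, and their list's summed level was 39.1 to 120 FPKM in PPARγ/+_5d against 3.40 to 6.46 FPKM in WT_5d.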

How the data were processed

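RNA of 12 C2C12 libraries was prepared with a TruSeq kit and sequenced in pairs. The authors used Trim Galore for trimming, STAR for alignment and HTSeq for counting, and deposited FPKM. The methods name GRCm38 with Ensembl release 83, whereas mm9 stands in the submitters' processing notes, and strand in counting is not given in the sources used here. A second deposited table holds log2(FPKM + 1) by the authors and was not used.

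Fragments were recovered as FPKM times exonic length times the mapped read pairs stated by the study, and came out whole within 0.01 for 21224 of 27138 genes above 0 (78.2%) and for all 6 members. Tests were made with limma 3.58.1 (R 4.3.3, eBayes with trend) on log2(FPKM + 0.1) of 18023 genes with at least 0.1 FPKM in 3 libraries, with Benjamini-Hochberg adjustment over all of them, each on its own 6 libraries and the interaction on 12. Python 3.11.15, numpy 2.4.6, pandas 2.3.3 and matplotlib 3.10.9 were used, and the fits were tested on simulated data. Members and lists were chosen with earlier results of these data known. Named genes are the members, *Pparg*, the 5 most correlated with *Nefl* and with *Nefm*, those ranked beside them on 0d, genes within 500000 bases, and from each list up to 6 genes with a mean of at least 10 FPKM or called on 5d, and other listed genes named in the text were chosen after their values were seen. Alternatives were another pseudocount, filter, scaling, fit, call rule, voom on fragments, the replicate block and leaving out each library.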

Additional observations from a re-analysis of the deposited data

How the results depend on the processing

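No log2 fold change of the 4 tested members changed sign under any alternative. The count of members called between the cell types on 5d was 0 in 13 of 16 alternatives, 2 (*Nefl* and *Nefm*) with all 12 libraries in 1 fit, 2 with an unadjusted p, and 0 to 3 when each library was left out. The fit on 12 libraries takes part of its spread from the 0d libraries that chose *Nefl* and *Nefm*, so its 2 calls are no test of them. The count in WT cells was 1 to 2 when each library was left out. The interaction called 1 member with an unadjusted p and 0 to 1 when a library was left out. In each case the higher count came without WT_5d replicate 3, and the cause was not tested. The counts of the gene lists without that library were added after the data were seen. The pseudocount set the size of low values, so that *Nefl* on 5d lay at -0.20 with a pseudocount of 1, -3.62 with 0.01 and -3.94 with voom on fragments.

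Over all genes the count on 5d was 28, but 8 with a pseudocount of 1, 71 with 0.01, 199 with all 12 libraries, 606 with an unadjusted p, 1 to 723 when a library was left out, and 0 with the replicate block (2001 at an unadjusted p of at most 0.05). A filter at 1 FPKM gave 19 of 12290. The 287 on 0d became 115 with a pseudocount of 1, 107 with no filter, 474 with voom, 661 with an unadjusted p, 55 to 137 when a library was left out, and 0 with the replicate block (2755 at an unadjusted p of at most 0.05). Within WT and PPARγ/+ cells the counts of 2970 and 2735 became 1441 and 1241 with a pseudocount of 1, and 1806 in PPARγ/+ cells with the filter at 1 FPKM. The interaction's 137 became 90 with voom, 61 with the replicate block, 2164 with an unadjusted p and 42 to 527 when a library was left out. The replicate numbers did not pair the libraries, with correlations of -0.068 to 0.083 over 12 pairs of equal number. In 5 of 12 comparisons of a library with the 3 libraries of another group, the nearest had its own number. The replicate block called 0 members on 5d. Median-ratio scaling moved the median of all genes between the days from -0.08 to 0.02 in WT and from -0.10 to 0.02 in PPARγ/+ cells.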
